A study of Mus musculus with 20 samples.

Results

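The genes described here make bile acids in the liver or control how much is made: Cyp7a1, Hsd3b7, Akr1d1, Cyp8b1, Cyp27a1, Cyp7b1, Slc27a5, Baat, Nr1h4 and Nr0b2. They were taken by name, as the rows of the count table whose Ensembl identifiers carry these symbols in GENCODE M21. No measured value entered that rule, but earlier results of these data were known when the genes were chosen. All 10 were found, each as 1 row among the 21780 genes of the table. Bile acids are made from cholesterol in hepatocytes, and they carry cholesterol out of the body and help to absorb fat. In the classical pathway Cyp7a1 takes the first, rate-limiting step, while in the acidic (alternative) pathway Cyp27a1 acts first and Cyp7b1 follows. Bile acids switch on the nuclear receptor FXR (Nr1h4), which raises the co-repressor SHP (Nr0b2), and SHP then lowers transcription of Cyp7a1 and Cyp8b1 through the receptor LRH-1 (Nr5a2), a feedback loop known from liver.

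The RNA came from livers of 20 male C57Bl/6J mice, with 5 mice in each of 4 groups and 1 library for each mouse. All mice ate a high-fat diet (HFD, 42% of calories from fat) for 12 weeks from 8 weeks of age. After 2 weeks on the diet they were gavaged once with corn oil (HFD control), with Aroclor 1260 at 20 mg/kg (HFD + Aroclor), with PCB 126 at 20 µg/kg (HFD + PCB 126), or with both at the same doses (HFD + Aroclor + PCB 126, called co-exposed here). Aroclor 1260 is a commercial mixture of polychlorinated biphenyls (PCBs) that is mostly not dioxin-like, and PCB 126 is a dioxin-like congener that activates the aryl hydrocarbon receptor. No group on another diet was analysed here, so every value refers to liver under HFD, and all mice had been fasted for some hours. Libraries held 21836506 to 36854887 counts. The 6 hepatocyte markers together gave 68521 to 99589 CPM (counts scaled to the same library total) in each library, while Ptprc, Cd79a and Cd3e, the T and B cell list, stayed at or below 16.5, 1.69 and 0.748 CPM.

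In these data each of the 10 genes was well counted, from the lowest level, 169 reads of Nr0b2 in 1 library, to the highest, 42354 reads of Slc27a5. The exons of Hsd3b7 overlap Gm49388 on the same strand (chr7:127800604-127803802, GRCm38), so the counting may have lost or shared reads there and its level is uncertain. No other gene of the set shares exons with a neighbour. Since whole liver was sequenced, fewer hepatocytes and less RNA per hepatocyte cannot be told apart for any value below.

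The start sites of 6 of the 10 genes had a sequence in the RefSeq promoter table (GRCm38.p6, 250 bases before to 50 after the start): Cyp8b1, Cyp27a1, Nr1h4, Nr0b2, Hsd3b7 and Akr1d1. Cyp7a1, Cyp7b1, Baat and Slc27a5 were not in it. The windows were searched on both strands for CAAGGNCA, the extended half-site that LRH-1 binds, and for AGGTCA, the half-site shared by FXR and many other nuclear receptors. CAAGGNCA was found in Nr0b2 and Cyp8b1 and in 6.71% of all 32851 promoters of the same length. AGGTCA was found in Akr1d1 and Nr1h4 and in 16.3% of all promoters, each time as its reverse complement TGACCT on the gene's own strand. The stretches below show these matches in capitals with 11 bases on each side, read along the gene's strand, because they place SHP and the gene it represses through LRH-1 beside each other.
Nr0b2, chr4:133553164-133553193, plus strand, CAAGGNCA from base -201: taaagtgatagCAAGGCCAcgtggagcttc
Cyp8b1, chr9:121916347-121916376, minus strand, CAAGGNCA from base -60: tgagcaaagtcCAAGGGCAggaacctttgc
Akr1d1, chr6:37529930-37529957, plus strand, AGGTCA reversed from base -232: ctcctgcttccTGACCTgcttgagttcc
Akr1d1, chr6:37529952-37529979, plus strand, AGGTCA reversed from base -210: agttccagcctTGACCTcctttggtgat
Nr1h4, chr10:89506856-89506883, minus strand, AGGTCA reversed from base -214: cgtgtggcattTGACCTccagccagtct
The Nr1h4 start in this table lies inside the gene span of the other annotation (chr10:89454234-89533585), so that window belongs to an internal start. A match describes the letters only. No binding was measured in these livers.

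Per length of transcript, the 10 genes spanned a wide range of levels. In HFD control mice Slc27a5, the ligase that activates bile acids for conjugation, was highest at 449 ± 39.0 FPKM (CPM divided by exon length in kilobases, mean ± SD, n = 5). Cyp8b1, which directs intermediates to cholic acid, followed at 270.2 ± 80.0, then Cyp27a1 at 236 ± 37.1 and Baat, which joins bile acids to taurine or glycine, at 173 ± 5.67. Cyp7b1 was at 134 ± 109.7 and Nr1h4 at 71.9 ± 11.8. Cyp7a1 took only the seventh place, at 44.5 ± 24.9 FPKM, followed by Akr1d1, a sterol ring reductase, at 34.9 ± 11.7, Nr0b2 at 22.6 ± 10.6 and Hsd3b7, which oxidises the product of Cyp7a1, at 12.3 ± 1.62. Between neighbours in this order only Slc27a5 and Cyp8b1 did not overlap over the 5 mice. In co-exposed mice the order of the means differed: Baat took the second place, Cyp8b1 the fourth, Cyp7a1 the fifth, Akr1d1 the sixth and Cyp7b1 the eighth. Baat (172 to 215 FPKM), Cyp27a1 (165 to 223) and Cyp8b1 (106 to 228) overlapped there. The order also differed from control with Aroclor and with PCB 126, where Cyp7a1 took the sixth place. Differences between libraries in base composition, described below, were not removed from these levels.

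**Figure D1:**
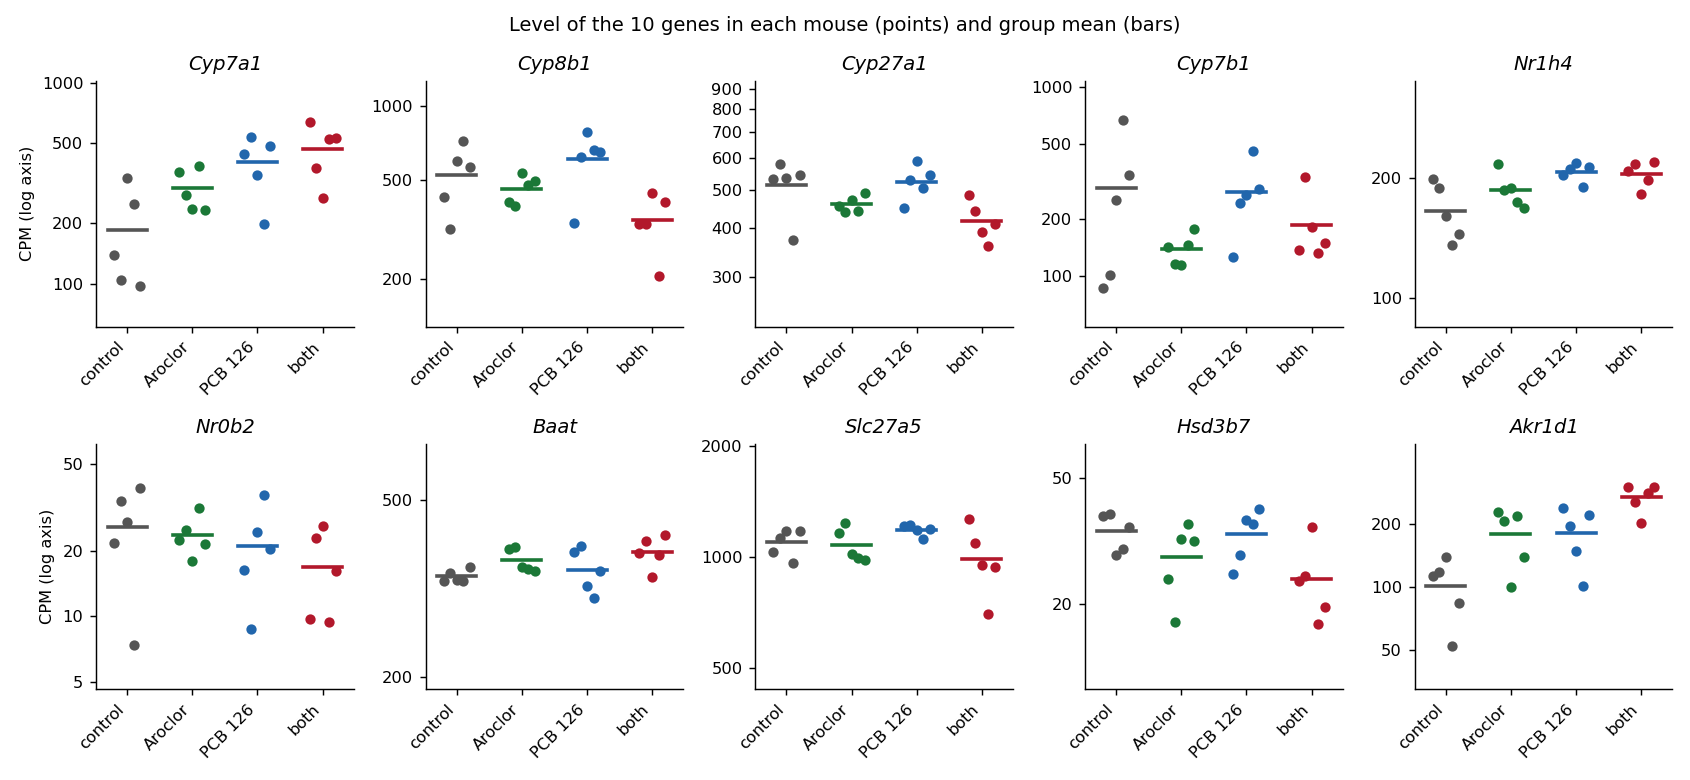
Level of the 10 genes in each mouse, in CPM on a log axis, by group (control, Aroclor, PCB 126, both); points are mice and bars are group means. Only for Akr1d1 do all 5 co-exposed mice (201 to 301 CPM) lie above all 5 controls (51.9 to 139 CPM), and Cyp7b1 and Nr0b2 have the widest ratios of highest to lowest mouse within HFD control.

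The comparison of each exposure with HFD control asked how a single gavage of PCBs changed these transcripts under HFD. After co-exposure, 6 of the 10 genes passed an adjusted p of 0.05 in edgeR's quasi-likelihood test, where 32.8% of all 15522 genes tested passed it. Cyp7a1, Akr1d1 and Nr1h4 rose, and Cyp8b1, Cyp27a1 and Hsd3b7 fell. The median log2 fold change of the 10 genes was -0.22, against -0.00 over all genes. Without HFD control replicates 3 or 5 or co-exposed replicates 2, 4 or 5 the number fell to 3, 2, 3, 2 and 3, with Cyp7a1 and Akr1d1 in each. With Aroclor alone 0 of 10 passed, in a comparison where 0.0% of genes did and 2677 genes had an unadjusted p under 0.05, 3 of them from this set. With PCB 126 alone 0 of 10 passed with edgeR, where 0.116% of genes did, and 2280 genes had an unadjusted p under 0.05, again 3 of them from this set. DESeq2 called Cyp7a1 and Nr1h4 with PCB 126, where it called 2.0% of all genes, and none of the 10 with Aroclor, where it called 0.921%. After co-exposure it called the same number, 6, and 35.9% of all genes.

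**Figure D2:**
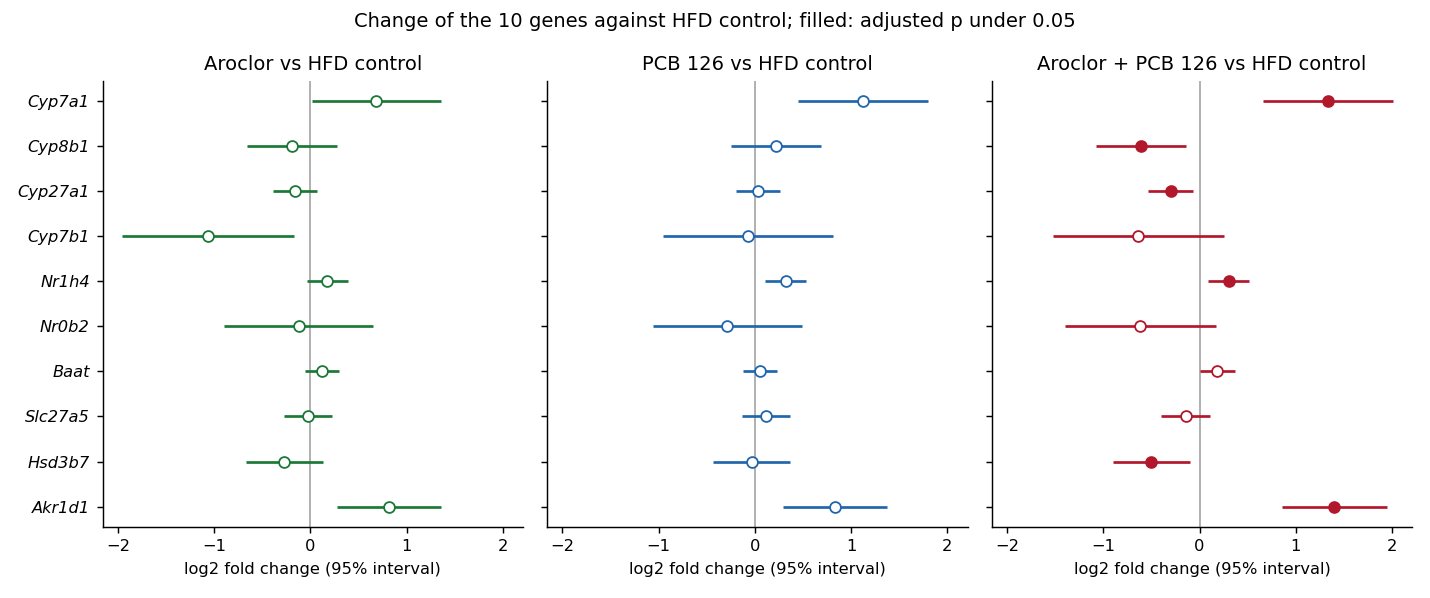
log2 fold change of the 10 genes against HFD control in the 3 exposures, with 95% intervals from edgeR (5 mice a group); filled points have an adjusted p under 0.05. After co-exposure Cyp7a1 (1.34) and Akr1d1 (1.40) lie farthest to the right, and both also lie right of 0 with each single exposure, where no point is filled.

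Libraries of co-exposed mice stood apart in base composition. Each gene's log2 CPM was first taken as the difference from its mean over the libraries, so a slope is relative to the other libraries. The slope of this difference over transcript GC content, per 10 percentage points of GC, was 0.00598 to 0.504 in HFD control, -0.114 to 0.148 with Aroclor, -0.102 to 0.408 with PCB 126 and -0.676 to -0.13 in co-exposed mice. The co-exposed mean was lower than control by 0.66, with no overlap (exact permutation test over 252 splits, two-sided, p = 0.00794). The labels number the libraries in group order and do not say what the number stands for, so any batch that followed it and the exposure cannot be told apart. The 10 genes span this axis, set against the quartiles of the 11341 genes with a mean of at least 1 CPM. Cyp7a1 (39.9% GC), Akr1d1 (41.9%) and Cyp7b1 (42.5%) lie below the lower quartile at 45.4%. Hsd3b7 (54.6%) and Cyp8b1 (54.8%) lie just above the upper quartile at 54.4%, and Nr0b2 (57.8%) lies farther above it. The fold changes of the 10 genes after co-exposure are therefore given also with each library's smooth trend over GC content removed (GC correction), after which 9.1% of genes passed in co-exposed mice. Of the 10 genes only Akr1d1 then passed. With the single exposures 0.0% (Aroclor) and 0.329% (PCB 126) of genes passed after GC correction, and none of the 10. With the GC slope of the library as a covariate instead, 3.12% of genes passed with Aroclor, 4.88% with PCB 126 and 3.34% after co-exposure, again none of the 10.

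**Figure D3:**
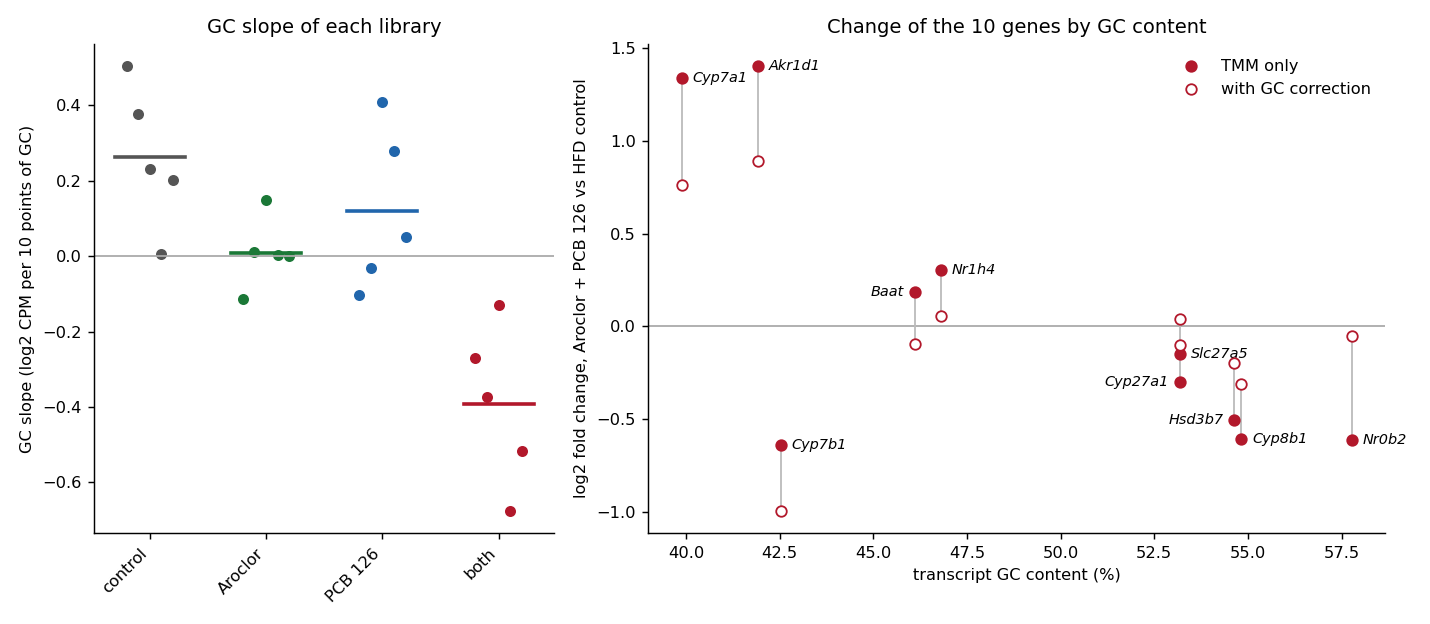
Left, the GC slope of each library (log2 CPM minus each gene's mean over the libraries, per 10 percentage points of GC) by group, with group means as bars; the co-exposed libraries lie lowest. Right, log2 fold change of the 10 genes after co-exposure against transcript GC content, without (filled) and with GC correction (open); Akr1d1 stays at 0.89, Cyp7b1 moves to -0.99, and Baat and Slc27a5 cross 0.

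Cyp7a1 (chr4:6265612-6275633, minus strand, GRCm38, as for all positions here), which sets the rate of the classical pathway, rose 2.52-fold after co-exposure. HFD control mice had 139.7, 105, 337, 249 and 97.9 CPM and co-exposed mice 639.8, 377, 267, 525 and 533 CPM (replicates 1 to 5). The groups overlapped through control replicate 3 and co-exposed replicate 3, and 4 of 5 co-exposed mice were above every control. The log2 fold change was 1.34 ± 0.33 (SE; adjusted p = 0.00456), and the gene was called in all 20 fits that left out 1 library. With GC correction it was 0.76 (95% interval 0.17 to 1.35, adjusted p = 0.096) and was no longer called. With the GC slope as a covariate it was 0.29, also not called. Mice given Aroclor had 359, 277, 236, 387 and 234 CPM, and mice given PCB 126 had 443, 540.1, 348, 199 and 486 CPM. Of these, 2 and 4 mice lay above all controls. The log2 fold changes were 0.69 (adjusted p = 0.28) and 1.12 (adjusted p = 0.138), or 0.41 and 0.95 with GC correction, and with DESeq2 the PCB 126 value was 1.09 with an adjusted p of 0.0319.

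Akr1d1 (chr6:37530173-37568815, plus strand), the reductase that both pathways use to saturate the sterol ring, had the smallest adjusted p of the 10 genes. The 5 controls had 113, 118, 139, 51.9 and 83.5 CPM and co-exposed mice 299.6, 254, 201, 281 and 301 CPM. No co-exposed mouse overlapped with a control, which held for 1 of the 10 genes and for 18.8% of all genes. It rose 2.64-fold, with a log2 fold change of 1.40 ± 0.26 (SE; adjusted p = 0.00116), and was called in all 20 fits without 1 library. With GC correction it was 0.89 (95% interval 0.37 to 1.41, adjusted p = 0.0323). With the GC slope as a covariate it was 0.93 but not called (adjusted p = 0.432). With Aroclor the mice had 227, 207, 100.01, 218 and 139 CPM and with PCB 126 239, 195, 147, 101 and 220.0 CPM, in both cases overlapping the controls, as did all 10 genes with either single exposure (2.94% of all genes did not overlap with Aroclor and 2.14% with PCB 126). These gave log2 fold changes of 0.82 (adjusted p = 0.195) and 0.84 (adjusted p = 0.164), or 0.55 and 0.66 with GC correction.

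Hsd3b7, which acts directly after Cyp7a1, fell from 28.7 to 38.3 CPM in HFD control to 17.3 to 34.9 CPM in co-exposed mice. Of the 5 co-exposed mice, 4 were below every control. The log2 fold change of -0.50 (adjusted p = 0.0497) sat at the threshold. It was called in only 7 of the 20 fits without 1 library, namely those without control replicates 3 or 4, Aroclor replicates 2, 4 or 5, PCB 126 replicate 1 or co-exposed replicate 3, and its adjusted p reached 0.123. With GC correction it was -0.19 (adjusted p = 0.489).

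Cyp8b1 (chr9:121914356-121916305, minus strand), the branch-point hydroxylase for cholic acid, moved against Cyp7a1. HFD control mice had 429, 318, 600.4, 719 and 568 CPM and co-exposed mice 333, 335, 445, 206 and 409.5 CPM, so 1 co-exposed mouse lay below all controls and the groups overlapped. It fell by 0.61 on the log2 scale after co-exposure (SE 0.23, adjusted p = 0.0438). This call was lost in 8 of 20 fits, those without control replicates 3, 4 or 5, PCB 126 replicates 2 or 5, or co-exposed replicates 1, 2 or 4 (adjusted p up to 0.108), and with GC correction (-0.31, adjusted p = 0.414). PCB 126 alone gave 337, 622, 788, 666 and 654 CPM, a log2 fold change of 0.22 (adjusted p = 0.689). Co-exposed mice were therefore also lower than mice given PCB 126 alone, by 0.83 on the log2 scale (adjusted p = 0.0229), a comparison in which 16.7% of genes and 2 of the 10, Cyp8b1 and Cyp27a1, passed. That value was -0.55 with GC correction (adjusted p = 0.17), where 0.0% of genes passed, and without PCB 126 replicates 3 or 4 or co-exposed replicates 4 or 5 it was not called.

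In the acidic pathway, Cyp27a1 (chr1:74713574-74737892, plus strand), the mitochondrial hydroxylase that opens it and also oxidises the side chain, changed little in size. In HFD control the values were 532, 579.9, 536, 373 and 545 CPM and in co-exposed mice 484, 442, 391, 359 and 408 CPM. Control replicate 4 stood far below the other controls, inside the co-exposed range. Cyp27a1 fell by 0.30 on the log2 scale (SE 0.11, adjusted p = 0.0418). The call was lost in 7 of 20 fits, without control replicates 1, 2, 3 or 5 or co-exposed replicates 3, 4 or 5 (adjusted p up to 0.0952), and with GC correction (-0.10, adjusted p = 0.574). Against PCB 126 alone it was lower by 0.33 (adjusted p = 0.0461), called in 7 of 20 fits without 1 library and not with GC correction (-0.17, adjusted p = 0.324).

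Cyp7b1 (chr3:18071950-18243338, minus strand), the oxysterol hydroxylase of the acidic pathway, differed most between mice of 1 group. HFD control mice had 86.4, 102, 252, 671 and 343 CPM, a 7.76-fold range that took in every exposed mouse. Aroclor mice lay close together at 143, 116, 114, 146 and 177 CPM, and PCB 126 mice at 126, 244, 267, 459 and 288 CPM. Co-exposed mice had 137, 334, 181, 133 and 149.9 CPM, replicate 2 standing far above the other 4. None of the differences from HFD control passed the test: the log2 fold change was -1.06 with Aroclor (95% interval -1.96 to -0.17, adjusted p = 0.238), -0.07 with PCB 126 (adjusted p = 0.959) and -0.64 after co-exposure (adjusted p = 0.274). With GC correction the co-exposure value was -0.99 (95% interval -1.87 to -0.12, adjusted p = 0.143), so Cyp7b1 was the gene of the set whose lower level grew with that correction.

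Neither conjugating enzyme passed the test in any comparison. Slc27a5 (chr7:12988346-12998192, minus strand) was at 962 to 1178 CPM in HFD control, 980.0 to 1235 with Aroclor, 1115 to 1223 with PCB 126 and 701 to 1266 in co-exposed mice, where it spread most. Its log2 fold changes of -0.02, 0.11 and -0.15 had 95% intervals inside -0.40 and 0.36. Baat (chr4:49489422-49506557, minus strand) was at 327 to 352 CPM in HFD control, with a coefficient of variation of 3.28%, the smallest of the 10 genes in that group. Of 5 co-exposed mice (334 to 417 CPM), 4 lay above every control, but the log2 fold change of 0.19 did not pass the test (adjusted p = 0.104) and was -0.10 with GC correction. With the single exposures Baat differed by 0.12 and 0.05 (adjusted p = 0.458 and 0.831).

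Nr1h4 (chr10:89454234-89533585, minus strand), the bile acid receptor FXR, was slightly higher after co-exposure and after PCB 126. HFD control mice had 198, 189, 161, 136 and 145 CPM, co-exposed mice 208, 216, 182, 198 and 219 CPM, and PCB 126 mice 203, 211, 219, 190.0 and 213 CPM. All but 2 co-exposed mice and 1 PCB 126 mouse lay above the highest control, so both groups overlapped HFD control. The log2 fold change was 0.30 ± 0.10 (SE) after co-exposure (adjusted p = 0.0275) and 0.32 ± 0.10 with PCB 126 (adjusted p = 0.175 with edgeR, 0.048 with DESeq2). The co-exposure call was lost in 8 of 20 fits, without control replicates 3, 4 or 5, Aroclor replicates 4 or 5, or co-exposed replicates 2, 4 or 5 (adjusted p up to 0.0783). With GC correction the values were 0.05 (adjusted p = 0.832) and 0.27 (adjusted p = 0.264). With the GC slope as a covariate the co-exposure value was instead 0.45, also not called, so the 2 settings moved it in opposite directions. With Aroclor (168 to 216 CPM) the log2 fold change without correction was 0.17 (adjusted p = 0.373).

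Nr0b2 (chr4:133553376-133556536, plus strand), the FXR target SHP that represses Cyp7a1 and Cyp8b1, did not pass the test in any comparison. Levels in HFD control were 21.6, 33.7, 26.9, 7.41 and 38.5 CPM and in co-exposed mice 9.68, 22.7, 25.8, 9.42 and 16.1 CPM. All co-exposed mice lay within the control range, which control replicate 4 alone carried below 21.6 CPM. The log2 fold change was -0.61 (95% interval -1.39 to 0.17, adjusted p = 0.223), -0.85 and called without control replicate 4 (adjusted p = 0.0453), and -0.05 with GC correction (adjusted p = 0.957). Aroclor mice (17.97 to 31.2 CPM) and PCB 126 mice (8.70 to 35.7 CPM) differed from control by -0.12 and -0.29 (adjusted p = 0.875 and 0.769).

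Between the exposed groups, none of the 10 genes passed in co-exposed mice against Aroclor alone, where 0.412% of genes passed, nor in PCB 126 against Aroclor, where 0.0258% did. In the first of these comparisons Akr1d1 was higher by 0.59 (unadjusted p = 0.0345 in the edgeR fit, adjusted p = 0.181) and was the 1 gene of the set with an unadjusted p under 0.05. The interaction, which asks whether co-exposure differed from the sum of both single exposures on the log2 scale, called 0.0% of all genes and none of the 10 (1846 genes had an unadjusted p under 0.05, and DESeq2 called 1 gene). Its values were -0.47 for Cyp7a1 (95% interval -1.41 to 0.47), -0.25 for Akr1d1 (-1.01 to 0.51) and -0.64 for Cyp8b1 (-1.30 to 0.02). For Cyp7a1 and Akr1d1 the intervals are too wide to tell an additive rise from a clearly smaller one. Cyp8b1 differed by -0.19 with Aroclor and 0.22 with PCB 126, so its negative value stands for a larger fall than additive. Its interval also includes 0.

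Genes of the feedback loop were also compared from mouse to mouse. In all, 6 pairs of genes were correlated over the 20 mice after the group mean was subtracted from each gene's log2 CPM, so that exposure itself did not enter. Cyp7a1 and Nr0b2 ran against each other, with a Pearson's r of -0.62 (permutation p = 0.0176, adjusted over 6 pairs 0.106) and a Spearman's rho of -0.58 (permutation p = 0.0202, adjusted 0.121), which did not pass the correction. Without the 2 mice farthest from the median of Cyp7a1, HFD control replicate 3 and PCB 126 replicate 4, r was -0.75 (permutation p = 0.00474, adjusted 0.0284). Over the 20 sets without 1 mouse it lay between -0.78 and -0.55, and only the set without HFD control replicate 3 passed the correction (r = -0.78, permutation test, adjusted p = 0.0054). On GC-corrected values it was -0.54 (permutation p = 0.0521, adjusted 0.312). Within groups the GC slope of a library correlated with both genes, at -0.55 for Cyp7a1 and 0.55 for Nr0b2, and its part in the relation beyond the corrected value was not tested.

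**Figure D4:**
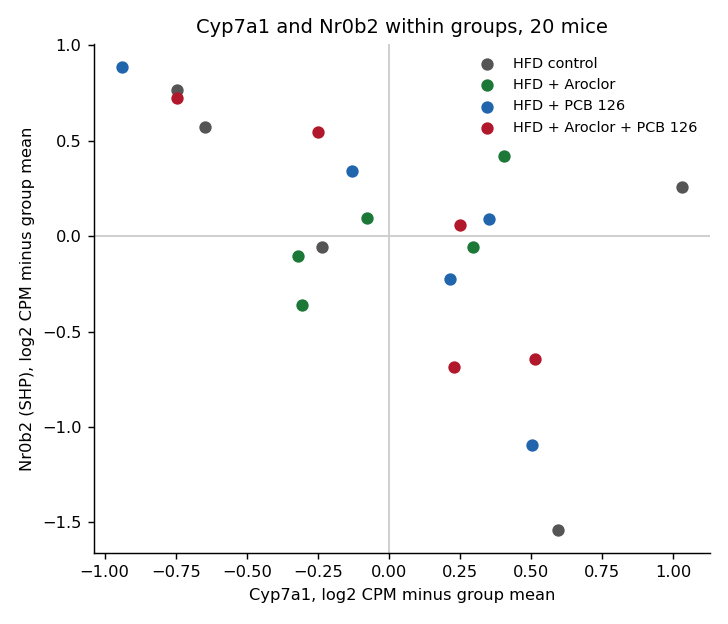
Nr0b2 (SHP) against Cyp7a1 in 20 mice, each as log2 CPM minus the mean of its group; colours mark the 4 groups. Mice low in Cyp7a1 for their group tend to lie high in Nr0b2 (r = -0.62), with exceptions such as control replicate 3 at the far right and Aroclor replicate 4, which are high in both, and Aroclor replicate 3, which is low in both.

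The other pairs did not pass the correction either. Cyp8b1 and Nr0b2 gave r = 0.04 and rho = 0.17, Nr1h4 and Nr0b2 0.10 and -0.06, Cyp7a1 and Cyp8b1 0.03 and 0.02, and Cyp7a1 and Cyp7b1 0.02 and 0.01 (permutation p of 0.527 or more for each). Cyp7a1 and Dbp, a clock output gene whose protein binds the Cyp7a1 promoter, gave r = -0.32 (permutation p = 0.289) and rho = -0.35 (permutation p = 0.197). The 2 mice farthest from the median were chosen for each pair by its first gene. Without those farthest in Cyp7a1, named above, r of the Cyp7a1 and Dbp pair was -0.50. Without those farthest in Cyp8b1, r of Cyp8b1 and Nr0b2 was -0.23. Without those farthest in Nr1h4, r of Nr1h4 and Nr0b2 was -0.23. On GC-corrected values of all 20 mice Cyp7a1 and Dbp gave -0.02 (permutation p = 0.938).

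Profiles were also compared over all 20 libraries and 11342 genes, after the group mean was subtracted from each gene's log2 CPM. Most like Cyp7a1 were Ube2e1 (Pearson's r = 0.84), Zfp120 (0.81) and Gbp7 (0.79), and on GC-corrected values these were 0.76, 0.52 and 0.72. Among those most like Cyp8b1 were Dtnb (0.85) and Creb3l3 (0.83), at 0.83 and 0.75 after correction. These values describe differences between mice within groups and carry no test.

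Among the other enzymes of bile acid synthesis, 6 of 14 changed after co-exposure (32.8% of all genes did), 2 up and 4 down, with a median log2 fold change of 0.01 over the list. On that scale Cyp39a1, an oxysterol hydroxylase, rose by 0.72 (adjusted p = 0.0267), and Akr1c6 rose by 0.37. 4 peroxisomal genes fell, namely Acot8, a thioesterase, by 0.72 (adjusted p = 0.00464), Acaa1a and Acaa1b, thiolases of beta-oxidation, by 0.56 and 0.47, and Amacr, the racemase that prepares the side chain for shortening, by 0.29 (adjusted p = 0.0279). With GC correction Amacr alone passed (-0.36, adjusted p = 0.0278), while Cyp39a1 was at 0.30 and Acot8 at -0.24, and the direction turned for Acaa1a (0.04), Acaa1b (0.16) and Akr1c6 (-0.09). Acox2, Hsd17b4 and Scp2, which carry out side-chain shortening with Amacr, differed by -0.02, 0.09 and -0.00 and did not pass.

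Of the receptors, cofactors and other genes that control synthesis, 8 of 14 changed after co-exposure, where 32.8% of all genes did, 3 up and 5 down, with a list median of 0.07. Prox1, a co-repressor of Cyp7a1 that works with LRH-1 and HNF4A, rose by 1.14 on the log2 scale from 74.6 to 89.6 CPM in HFD control to 163 to 188 CPM. Ppargc1a, the coactivator that raises Cyp7a1 in fasting, rose by 0.97 from 4.56 to 5.80 CPM to 9.54 to 11.9 CPM. Neither overlapped its controls, which held for 18.8% of all genes and, in this list, also for Nr1h2 and Fgfr4. Zfp36l1, an RNA-binding protein that shortens the life of Cyp7a1 mRNA, rose by 0.68, again without overlap. These 3 also passed with GC correction, at 1.01 (adjusted p = 0.0033), 0.66 (adjusted p = 0.00606) and 0.86 (adjusted p = 0.00378). Fgfr4, the receptor for the intestinal hormone FGF15 that represses Cyp7a1, fell by 0.89 (7.999 to 13.6 CPM against 16.4 to 25.1 CPM, adjusted p = 0.00103) and was -0.26 with GC correction (adjusted p = 0.0768). Nr1h2 and Nr1h3, the oxysterol receptors LXR beta and alpha, fell by 1.12 and 0.70, and with GC correction Nr1h2 still passed at -0.39 (adjusted p = 0.0467) and Nr1h3 did not (-0.20). Mafg and Rxra, the last of the 8, were at -0.58 and -0.54, and at -0.03 and 0.01 with GC correction. Nr5a2 (LRH-1) and Hnf4a, activators of Cyp7a1 and Cyp8b1, did not pass, at 0.26 (adjusted p = 0.0754) and -0.45 (adjusted p = 0.0628). Nr1i3, the receptor CAR, was at 0.47 (adjusted p = 0.13) and passed only with GC correction (0.71, adjusted p = 0.0401).

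Of the bile acid carriers, 10 of 12 were tested, since Gpbar1 and Fgf15 had under 10 counts in all. After co-exposure 3 rose and none fell, a share close to the 32.8% of all genes that passed, with a median log2 fold change of 0.25. They were Abcc2, a canalicular export pump (0.56, adjusted p = 0.00656), Slco1b2, a sinusoidal uptake carrier (0.50, adjusted p = 0.02), and Slc10a1, the main sodium-dependent uptake carrier NTCP (0.33, adjusted p = 0.0305). None of the 3 passed with GC correction, at 0.21, -0.21 and 0.19 in turn. Abcb11, the bile salt export pump and a target of FXR, was at -0.27 (adjusted p = 0.0669) and passed only with GC correction (-0.55, adjusted p = 0.00431), as did Abcb4, the phospholipid floppase (-0.22, and -0.57 with an adjusted p of 0.0193). With either single exposure no gene of these 3 lists passed. Prox1, Ppargc1a and Zfp36l1 were nonetheless higher than control by 0.76, 0.67 and 0.40 with Aroclor (edgeR, adjusted p = 0.184, 0.184 and 0.222). With PCB 126 they were higher by 0.75, 0.63 and 0.40 (edgeR, adjusted p = 0.0657, 0.0548 and 0.241).

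**Figure D5:**
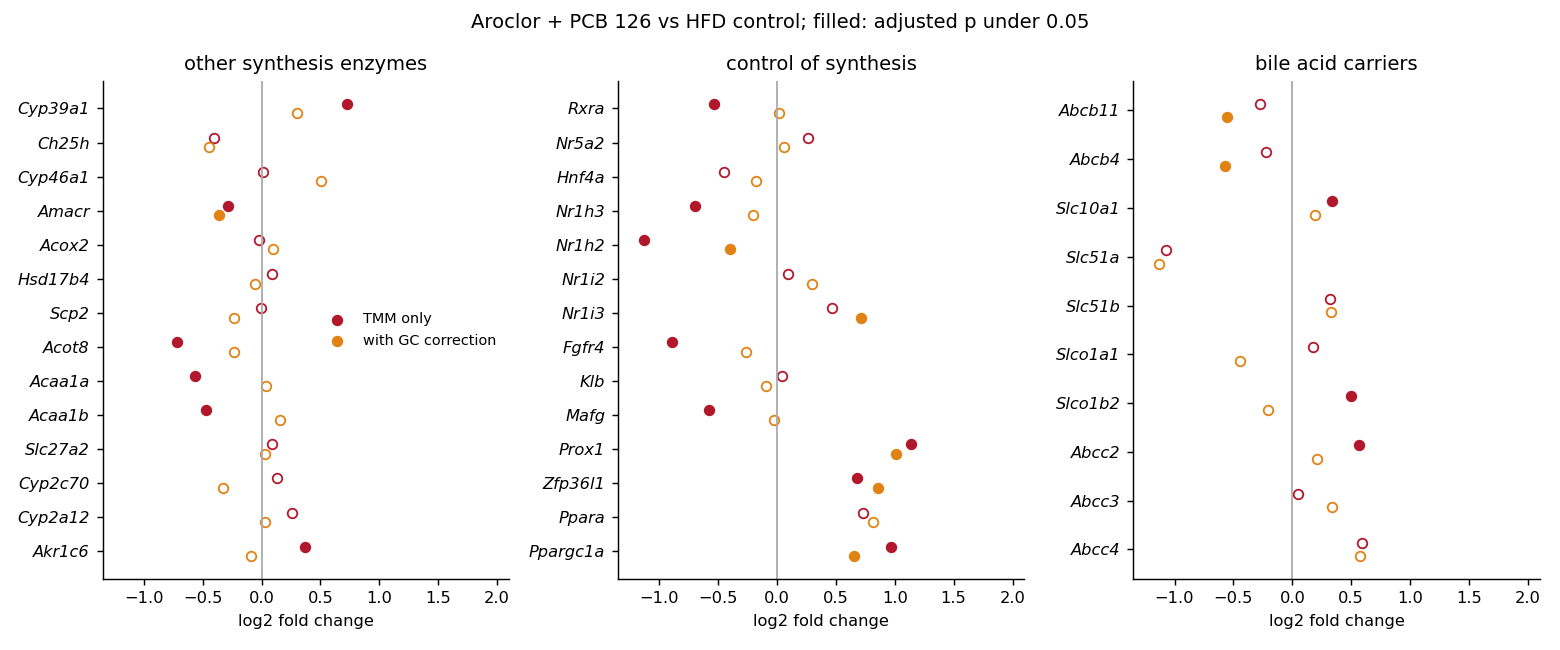
log2 fold change after co-exposure against HFD control of the other genes of the pathway in 3 lists, without (red, upper) and with GC correction (orange, lower); filled points have an adjusted p under 0.05. Prox1, Zfp36l1 and Ppargc1a are filled on both, at 1.01, 0.86 and 0.66 after correction, while Abcb11, Abcb4 and Nr1i3 are filled only with it.

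Other measures moved with co-exposure beside the bile acid genes. Cyp1a1 and Cyp1a2, targets of the aryl hydrocarbon receptor, rose with PCB 126 by 6.93 and 2.04 on the log2 scale (adjusted p = 0.0095 and 0.000294). The size for Cyp1a1 leans on 1 mouse at 314 CPM: the PCB 126 mean was 78.6 CPM and the median 7.80, against a control median of 0.645. In co-exposed mice, which had the same dose of PCB 126, Cyp1a1 stood at 0.792 to 2.62 CPM against 4.09 to 314 CPM with PCB 126 alone. Against HFD control it did not pass there (1.06, adjusted p = 0.502), while Cyp1a2 rose by 1.00 (adjusted p = 0.00325). Cyp2b10, a target of the receptor CAR, was at 1.97 with Aroclor and 1.72 after co-exposure (adjusted p = 0.222 and 0.0831). Of 4 genes that follow the time of day, Nr1d1, a repressor of the clock, fell by 1.86 (10.03 to 26.8 CPM against 61.0 to 71.3 CPM, adjusted p = 0.000487) and Dbp fell by 1.01 (adjusted p = 0.00767), while Arntl and Per2 were at 0.12 and 0.13. With GC correction Nr1d1 still passed (-1.41, adjusted p = 0.00128), Dbp did not (-0.46, adjusted p = 0.207) and Per2 did (0.45, adjusted p = 0.0226). With PCB 126 Nr1d1 was at -1.18 (adjusted p = 0.052), and at -1.11 with GC correction (adjusted p = 0.0211). Cyp7a1 is itself a gene of strong daily rhythm, and the part of sampling time in its change was not tested.

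Markers of the cell types in liver moved in part after co-exposure, a comparison in which 32.8% of all genes passed. Of 6 hepatocyte markers, Apoa1, Ttr and Serpina1a fell after co-exposure by 0.78, 0.70 and 0.47 on the log2 scale, while Alb, Cps1 and Tat did not pass, and their summed level was 76995 to 85737 CPM in HFD control and 71447 to 99589 CPM in co-exposed mice. Adgre1, 1 of 5 macrophage markers, and Lrat, Reln and Dcn, 3 of 5 stellate cell markers, rose. Ptprc, a leukocyte gene and 1 of 3 genes in the T and B cell list, also rose. The stellate marker Des and the endothelial marker Stab2 fell. The summed stellate list was 121 to 233 CPM in HFD control and 255 to 317 CPM in co-exposed mice, the macrophage list 109 to 231 and 122 to 172 CPM, the endothelial list 82.9 to 170.1 and 115 to 139 CPM and the T and B cell list 7.37 to 14.5 and 13.5 to 17.4 CPM. Most of that last sum was Ptprc, while Cd3e and Cd79a did not pass, at 0.15 and -0.24 (edgeR, adjusted p = 0.768 and 0.699). None of 6 cholangiocyte markers passed (66.5 to 74.7 and 63.0 to 130.2 CPM in sum). With GC correction only Ttr and Stab2 of all these markers passed, where 9.1% of all genes did. Their part in the changes of the bile acid genes was not tested.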

How the data were processed

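PolyA RNA of 20 livers was sequenced from stranded libraries. Per the labels the authors used FastQC 0.10.1, STAR 2.6 (GRCm38.p6) and HTSeq 0.10.0, and deposited raw counts per gene, unfiltered and not normalized. The annotation release and the strand setting are not given in the sources used here. All columns were used (0 left out). For HFD + PCB 126 replicate 2 the library name carries another number than the title, which was followed. The labels state 12 weeks of treatment, the methods 10 weeks after gavage.

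Counts were tested with edgeR 4.0.16 (R 4.3.3): quasi-likelihood test, TMM scaling, at least 10 counts in all, 20 libraries in 1 fit with 16 residual degrees of freedom, Benjamini-Hochberg adjustment over 15522 genes. CPM used TMM library sizes, and FPKM also the exon length. Symbols and GC content came from GENCODE M21 (21754 of 21780 genes). GC correction was an offset, a spline (6 degrees of freedom) over GC content in each library, on genes of at least 1 CPM. It was fitted to each gene's log2 CPM minus its mean over the libraries. Correlations used log2(CPM + 0.5) and 100000 permutations within groups. Alternatives were RLE scaling, DESeq2 1.42.0, low-count filters, fewer groups, a replicate block, GC settings and leaving out each library. Scripts were tested on simulated data. Any 2 mice of a group differed beyond sampling noise (chi-square per degree of freedom of at least 18.7). With each liver sequenced once, the spread is between mice.

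All 10 genes are named. Other genes were named if past the threshold against HFD control (up to 6 a list, by p), and Mafg, Rxra, Nr5a2, Hnf4a, Acox2, Hsd17b4, Scp2, Nr1i3, Abcb11 and Abcb4 after their values were seen. The genes and lists were chosen with earlier results of these data known. For Cyp8b1, 1 gene of similar profile is not reported here.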

Additional observations from a re-analysis of the deposited data

Results flagged for a closer look

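A sample far from the rest of its group was found in 2 of the 40 sets of 5 mice examined (10 genes in 4 groups), where chance alone gives about 1 in 20. In HFD control replicate 4, Cyp27a1 was at 373 CPM while the other 4 controls lay between 532 and 579.9 CPM. The same mouse had the lowest Nr0b2, Akr1d1 and Nr1h4 and the highest Cyp7b1 and Cyp8b1 of HFD control. In HFD + Aroclor + PCB 126 replicate 2, Cyp7b1 was at 334 CPM while the other 4 co-exposed mice lay between 133 and 181 CPM.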

How the results depend on the processing

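With RLE scaling, DESeq2, no low-count filter, filterByExpr or a replicate block, 6 of the 10 genes were called after co-exposure, as with the main settings. Of all genes, 5104, 5577, 4974, 5343 and 5292 were called in turn, out of 15522, 15522, 17279, 12869 and 15522 tested. The number of the 10 was 3 when only the groups compared were fitted, where 4183 of all 15050 genes tested passed. It was 1 with GC correction (1412 of 15522 genes), 1 with GC correction and replicate block (1435) and 1 with GC and length correction (1471). With the GC slope as a covariate it was 0 (518 genes). Without the 2 libraries of most extreme GC slope it was 3, where 3264 of 15361 genes passed. These were HFD control replicate 1 and co-exposed replicate 4, an alternative chosen after seeing the data. Leaving out single libraries gave 2 to 6, and the share of all genes in those fits is not reported here. For co-exposed mice against PCB 126 the number was 2, where 16.7% of all genes passed, and 0 under each of the 4 GC settings and without those 2 libraries. Of all genes, 0 passed with GC correction, 197 with the added block, 65 with GC and length correction and 0 with the covariate. Without those 2 libraries 710 of 15361 did. Leaving out single libraries gave 0 to 3 of the 10. DESeq2 called 2 with PCB 126 against HFD control, where it called 2.0% of all genes. The fit of only the groups compared does not apply to the interaction. Mice of different groups are different animals, so the replicate block pairs by number alone: 13 of 30 same-number pairs correlated over 0.1, 10 of 20 libraries correlated best with their own number, and the block left 6, 2 and 0 calls as they were.

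Some log2 fold changes of the 10 genes changed sign, of called values those of Cyp27a1 and Hsd3b7 after co-exposure. Rxra, Acaa1a, Acaa1b, Akr1c6, Slco1b2 and Dcn, called genes of the other lists, also changed sign with GC correction. With GC correction, GC correction with replicate block, GC and length correction and the GC slope covariate in turn, Nr0b2 with Aroclor was 0.0763, 0.123, 0.190 and 0.435, Slc27a5 with Aroclor 0.0299, 0.0213, 0.0532 and 0.0464, Slc27a5 after co-exposure 0.0415, 0.0270, 0.0757 and 0.0235, Baat after co-exposure -0.0956, -0.0951, -0.00418 and -0.0601, and Hsd3b7 with PCB 126 0.0294, 0.00939, 0.0333 and 0.134 (0.00948 without the 2 libraries). Baat with Aroclor was -0.00597 and -0.00508 under the first 2 of these settings. Baat with PCB 126 was -0.0152, -0.0145 and -0.00906 with GC correction, with the added block and with the covariate. Cyp7b1 with PCB 126 was 0.0427 with the block and 0.0139 with block and GC correction. Nr0b2 after co-exposure was 0.110 with GC and length correction and 0.682 with the covariate. The covariate also gave 0.0310 for Hsd3b7 with Aroclor, and 0.0691 for Cyp27a1 and 0.245 for Hsd3b7 after co-exposure. Without single libraries, signs changed for Nr0b2 with Aroclor (-0.356 to 0.0692), Slc27a5 with Aroclor (-0.0760 to 0.00533), Cyp27a1 (-0.0664 to 0.0816), Cyp7b1 (-0.331 to 0.498) and Hsd3b7 (-0.109 to 0.0550) with PCB 126. The cause was not tested.

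Of the correlations, that of Cyp7a1 and Nr0b2 was -0.59 without subtracting group means (adjusted permutation p = 0.0386), -0.75 without the 2 mice farthest from the median, and -0.78 to -0.55 without single mice. Without subtracting group means the others were -0.17 (Cyp7a1 and Cyp8b1), 0.16 (Cyp8b1 and Nr0b2), -0.10 (Nr1h4 and Nr0b2), -0.0226 (Cyp7a1 and Cyp7b1) and -0.52 (Cyp7a1 and Dbp). Without the 2 mice farthest from the median of each pair's first gene the first 3 of these were -0.000124, -0.229 and -0.231, and with GC correction Cyp8b1 and Nr0b2 gave -0.12 and Cyp7a1 and Cyp7b1 -0.11. Without single mice they spanned -0.14 to 0.15, -0.11 to 0.35, -0.31 to 0.23, -0.19 to 0.20 and -0.48 to -0.21. With 5 mice a group, the 95% intervals without GC correction leave changes of Cyp7b1 and Nr0b2 in either direction possible after co-exposure.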

Other observations

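The ratio of Cyp8b1 to Cyp7a1 per transcript length, a reading of the branch to cholic acid against entry into the classical pathway, was calculated after the values of both genes had been seen and is given without a test. It was 6.57, 6.49, 3.81, 6.19 and 12.4 in HFD control mice and 1.11, 1.90, 3.57, 0.839 and 1.64 in co-exposed mice, so every co-exposed mouse lay below every control. Aroclor mice had 2.44 to 4.84 and PCB 126 mice 1.63 to 7.18, and both overlapped HFD control. On GC-corrected levels the ratio was 3.18 to 10.5 in HFD control and 1.48 to 4.10 in co-exposed mice, and these groups overlapped.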
